A study of Mus musculus with 12 samples.

Results

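The genes followed here are 10 genes of lymphoid priming and of the Ikaros family, *Flt3*, *Il7r*, *Dntt*, *Rag1*, *Rag2*, *Ebf1*, *Satb1*, *Ikzf1*, *Ikzf2* and *Ikzf3*. They were taken by gene symbol, from a choice made with earlier results of these data known, and all 10 were found among the 41128 genes of the count table. RNA-Seq was performed on bone marrow PreMegEs, the progenitors of megakaryocytes and erythroid cells, of C57BL/6 mice aged 12 to 16 weeks, with 3 libraries in each of 4 groups and cells of 3 mice pooled in each library. WT PreMegEs came from wild type mice. P2+ and P2- PreMegEs are the hCD4+ and hCD4- cells of mice of the genotype Runx1 P1-GFP::P2-hCD4/+, which carry 1 reporter allele with GFP at the distal promoter P1 and truncated human CD4 at the proximal promoter P2 of *Runx1*, so that both groups share the reporter allele and WT cells lack it. KO PreMegEs came from mice labelled RUNX1C knockout, RUNX1C being the isoform made from P1, and in the study such mice are homozygous for GFP at P1. The paper describes RNA-Seq of WT, P2+ and P2- PreMegEs alone. Whether the KO libraries were made together with the others is not given in the sources used here. In comparisons with KO, genotype and a difference in library preparation therefore cannot be told apart. The sort took lineage-negative, SCA1-negative, CD16/32-negative, cKIT+, CD150+, CD41- and Endoglin- cells, and hCD4 is a reporter of promoter activity and not RUNX1 protein.

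Lymphoid priming is the low and uneven transcription of lymphoid genes in progenitors that have not yet chosen the lymphoid fate. FLT3 and the IL-7 receptor are the cytokine receptors by which lymphoid-primed multipotent progenitors and common lymphoid progenitors are recognised. RAG1 and RAG2 cut antigen receptor gene segments, terminal transferase (*Dntt*) adds bases at the joins, EBF1 commits cells to the B lineage and SATB1 organises chromatin in early lymphoid cells. Ikaros (*Ikzf1*), Helios (*Ikzf2*) and Aiolos (*Ikzf3*) are zinc finger factors of 1 family, and Ikaros, best known for its part in lymphoid development, is also made in stem cells and in myeloid and erythroid progenitors.

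Library totals lay between 10726098 and 14445026 counts, so that 3 counts, the limit that a count of 0 allows, corresponded to 0.208 to 0.286 CPM (counts scaled to library size, with TMM factors). *Runx1* itself, counted over all isoforms, was at 613 to 658 CPM in P2+, 201 to 216 CPM in P2-, 358 to 388 CPM in WT and 340 to 382 CPM in KO libraries, and a count over the whole gene cannot show the loss of the P1 isoform alone. Of the surface antigens of the gate, *Kit* was at group means of 815 to 1088 CPM and *Ly6a*, which encodes SCA1, at 1.15 to 3.31 CPM, whereas *Itga2b*, which encodes the excluded antigen CD41, was at 50.7 CPM in P2- and 282 CPM in P2+ libraries. Replicate 2 of P2+ and replicate 2 of P2- stood apart from the rest in immediate early genes, with sums of 9317 and 13540 CPM over 15 genes and at most 1283 CPM in the other libraries.

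All levels below are CPM, and comparisons between genes use RPKM, which divides by exonic length. Per length, *Ikzf1* was the most abundant of the 10 genes in every group, with group means of 94.3 to 160 RPKM. *Ikzf2* followed at 9.43 to 10.5 RPKM. The other 8 genes had group means of at most 2.31 RPKM. The 10 genes therefore fell into 1 abundant gene, 1 of middle level and 8 low genes, for which single libraries rested on as few as 0 counts and at most 435 counts.

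The sequence upstream of 3 of the low genes is shown. Of these, *Flt3* and *Rag1* passed between P2+ and P2- PreMegEs, *Flt3* after entering the test through P2+ alone. *Dntt* was not tested there and had no overlap between these groups. The sequence of *Ebf1*, which also passed, is not shown, and its matches are given below. The RefSeq promoter table of GRCm38.p6 held 14 start sites for 8 of the 10 genes, with none for *Ikzf2* and *Ikzf3*. The 250 bases before each start were searched on both strands for 5 short motifs, set in capitals, which do not overlap in the windows shown. For RUNX factors the letters were TGTGGT. For Ikaros they were TGGGAA, the core of its site. For GATA factors they were AGATAA, and for ETS factors the letters searched were CCGGAA. For E-box factors such as E2A they were CAGCTG.
Rag1, chr2:101649533-101649782, minus strand: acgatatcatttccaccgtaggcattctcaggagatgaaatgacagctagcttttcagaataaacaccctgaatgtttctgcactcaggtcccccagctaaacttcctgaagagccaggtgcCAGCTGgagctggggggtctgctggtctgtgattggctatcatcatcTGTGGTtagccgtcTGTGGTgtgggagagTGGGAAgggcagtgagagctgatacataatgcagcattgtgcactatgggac
Flt3, chr5:147400490-147400739, minus strand: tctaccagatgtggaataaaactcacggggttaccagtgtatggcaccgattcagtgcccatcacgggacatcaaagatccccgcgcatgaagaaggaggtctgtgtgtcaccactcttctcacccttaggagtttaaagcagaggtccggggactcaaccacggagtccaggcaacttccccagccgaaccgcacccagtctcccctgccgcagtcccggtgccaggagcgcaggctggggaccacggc
Dntt, chr19:41029025-41029274, plus strand: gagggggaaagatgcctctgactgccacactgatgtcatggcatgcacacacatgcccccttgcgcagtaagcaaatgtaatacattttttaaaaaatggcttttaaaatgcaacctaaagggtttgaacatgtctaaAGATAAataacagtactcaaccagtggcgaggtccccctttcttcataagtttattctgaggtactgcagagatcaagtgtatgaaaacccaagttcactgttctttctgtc

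The window of *Rag1* held the RUNX letters at -81 and -67, the Ikaros letters at -52 and the E-box at -128, counted from the RefSeq start to the first base of the match. That of *Dntt* held the GATA letters at -112, and that of *Flt3* held none of the 5. Among the other windows, *Ebf1* had the RUNX letters at -12 of start 1 and the Ikaros letters at -207 of start 2, and *Satb1* had the E-box at -64 of start 3 and the Ikaros letters at -70 of start 5. The ETS letters were in no window of the members. Among 32851 promoter windows of the same length, 14.0% held the RUNX letters, 21.6% the Ikaros letters, 9.99% the GATA letters, 12.0% the ETS letters and 13% the E-box. A match is given as a description of the sequence only.

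**Figure D1:**
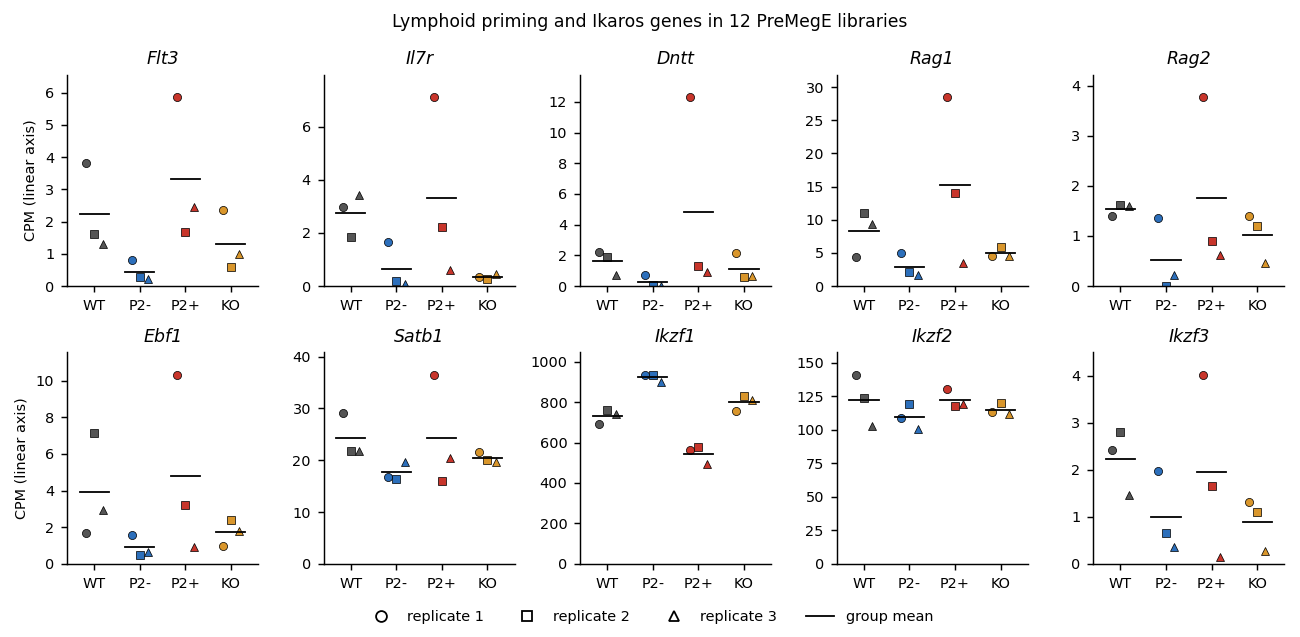
CPM of each gene (linear axis, from 0) in the 12 libraries, by group; symbols mark the replicate number and lines the group mean. *Ikzf1* runs from 494 CPM in P2+ to 933 CPM in P2- with no overlap of these groups, while 8 of the other genes have their highest value in replicate 1 of P2+.

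*Ikzf1* (ENSMUSG00000018654, chr11:11685003-11772926, plus strand), which encodes Ikaros, was lower in P2+ than in P2- PreMegEs, with WT and KO PreMegEs between them. It was at 931.6, 933 and 899 CPM in the 3 P2- libraries and at 564, 576 and 494 CPM in the 3 P2+ libraries. The WT libraries were at 693, 759 and 739 CPM and the KO libraries at 756, 829.8 and 810 CPM. Every P2- library was above every other library, and every P2+ library was below every other library, while WT and KO overlapped. Each P2- library shares its replicate number with a P2+ library, and the ratio of P2+ to P2- was 0.606, 0.617 and 0.550 in the 3 pairs. The difference between P2+ and P2- was -0.75 on the log2 scale (SE 0.077, edgeR adjusted p = 0.000115), or 0.593-fold. Against WT, *Ikzf1* was lower in P2+ (log2 fold change -0.42, SE 0.076, edgeR adjusted p = 0.00442) and higher in P2- (0.35, SE 0.066, edgeR adjusted p = 0.00596). KO differed from P2+ (0.54, SE 0.070, edgeR adjusted p = 0.000169). It did not pass against WT (0.12, SE 0.061, edgeR adjusted p = 0.207) or against P2- (-0.22, SE 0.056, edgeR adjusted p = 0.0976). In order of mean level the groups were P2- (921 ± 19.1 CPM, SD, n = 3), KO (799 ± 38.0 CPM), WT (730 ± 34.1 CPM) and P2+ (545 ± 44.2 CPM), and neither P2- and KO nor KO and WT, as neighbours in that order, differed past the test. All the differences of *Ikzf1* were smaller than 2-fold. The call of P2- against WT was lost in edgeR's exactTest at the same fold (0.35, adjusted p = 0.106), and the call of KO against P2- was gained in DESeq2 (adjusted p = 0.0371).

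*Ikzf2* (ENSMUSG00000025997, chr1:69531214-69687245, minus strand), which encodes Helios, had nearly level values across the groups. It was at 141, 123 and 103 CPM in WT, 109, 119 and 101 CPM in P2-, 130.3, 118 and 119 CPM in P2+ and 114, 120.1 and 112 CPM in KO libraries. All 4 groups overlapped with at least 1 other, and the widest fitted difference among the 6 comparisons was 0.16 on the log2 scale (P2+ against P2-, SE 0.088, edgeR adjusted p = 0.182). An antisense gene, Gm29114, shares 144 exonic bases with *Ikzf2*, and whether the counting used the strand is not given in the sources used here.

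*Ikzf3* (ENSMUSG00000018168, chr11:98464902-98546031, minus strand), which encodes Aiolos, was low, and in some P2-, P2+ and KO libraries close to or under the limit of 3 counts. Its counts were 35, 33 and 20 in WT, 25, 7 and 5 in P2-, 48, 24 and 2 in P2+ and 15, 13 and 3 in KO libraries. The P2+ libraries therefore held both the highest and the lowest count of the gene. *Ikzf3* did not pass in any of the 6 comparisons, the smallest edgeR adjusted p being 0.0985 for KO against WT (log2 fold change -1.29, SE 0.50, all 3 KO libraries below all 3 WT libraries in CPM), which passed in edgeR's exactTest (adjusted p = 0.0332).

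*Flt3* (ENSMUSG00000042817, chr5:147330741-147400489, minus strand), the receptor of FLT3 ligand, was higher in P2+ than in P2- PreMegEs. Its counts were 70, 24 and 32 in P2+ and 10, 3 and 3 in P2- libraries, against 55, 19 and 18 in WT and 27, 7 and 11 in KO libraries. Every P2+ library was above every P2- library, at 1.67 to 5.86 CPM against 0.211 to 0.795 CPM. The difference was 2.92 on the log2 scale (SE 0.668, edgeR adjusted p = 0.00857), and P2- was below WT by -2.36 (SE 0.626, edgeR adjusted p = 0.0285). In both comparisons *Flt3* passed the filter of 1 CPM in 3 of 6 libraries through 1 group alone, P2+ or WT, so that a gene entering in this way had to differ. P2+ and WT overlapped (0.55, SE 0.540, edgeR adjusted p = 0.547), as did KO and WT (-0.78, SE 0.522, edgeR adjusted p = 0.372). In these sorted populations a smaller number of cells carrying such a transcript and less of it per cell cannot be told apart.

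*Il7r* (ENSMUSG00000003882, chr15:9505788-9530176, minus strand), which encodes the alpha chain of the IL-7 receptor (CD127), was lower in KO than in WT PreMegEs and the 1 member that passed in this comparison. Its counts were 43, 22 and 47 in WT and 4, 3 and 5 in KO libraries, or 2.99, 1.87 and 3.43 CPM against 0.349, 0.257 and 0.455 CPM. The KO libraries lay close to the limit of 3 counts and all below the WT libraries. The difference was -2.95 on the log2 scale (SE 0.50, edgeR adjusted p = 0.000503). *Il7r* entered this test through the WT libraries alone, so that, as for *Flt3*, it had to differ, and with any WT library left out it no longer entered. Without the filter on low counts its edgeR adjusted p was 6.29e-06, and with all 12 libraries in 1 fit it was 0.0696 at nearly the same fold (-2.94).

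The same gene had the counts 85, 32 and 8 in P2+ and 21, 2 and 1 in P2- libraries. Replicate 1 of P2- at 1.67 CPM was above replicate 3 of P2+ at 0.610 CPM, so the groups overlapped, although P2+ was higher within each of the 3 numbered pairs. The difference of 2.34 on the log2 scale (SE 1.049) did not pass (edgeR adjusted p = 0.113). With the replicate number as a block it was 2.52 (edgeR adjusted p = 0.000938), and DESeq2 without the block gave an adjusted p of 0.0311. P2- was below WT in every library (-2.08, SE 0.743), without passing (edgeR adjusted p = 0.0843). At nearly the same fold it passed in DESeq2 (adjusted p = 0.0259), in edgeR's exactTest (0.0457) and without the filter (0.0258), and without replicate 1 of P2- it was at -4.38 (edgeR adjusted p = 0.00413), while the other alternatives gave 0.073 to 0.198. KO against P2+ and KO against P2- were not tested, since too few libraries reached 1 CPM.

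*Rag1* (ENSMUSG00000061311, chr2:101638282-101649501, minus strand) had, per length, the highest mean of the 8 low genes in P2+ PreMegEs, 2.31 ± 1.90 RPKM (SD, n = 3). That of *Dntt*, 2.12 ± 2.82 RPKM, rested on replicate 1 (5.37, 0.576 and 0.399 RPKM), and in the other two libraries *Dntt* was below *Satb1* (0.836 and 1.07 RPKM). The levels of *Rag1* were 28.5, 14.0 and 3.43 CPM in P2+ and 5.01, 2.10 and 1.69 CPM in P2- libraries, with WT at 4.37, 11.0 and 9.34 CPM and KO at 4.54, 5.83 and 4.46 CPM. Replicate 3 of P2+ lay within the range of P2-, and the ratio of P2+ to P2- in the pairs was 5.68, 6.66 and 2.03. The difference between P2+ and P2- was 2.38 on the log2 scale (SE 0.695, edgeR adjusted p = 0.0255). Under the replicate block, where same-numbered libraries are paired, this difference was 2.215 (edgeR adjusted p = 2.13e-05). *Rag1* was also lower in P2- than in WT (-1.48, SE 0.444, edgeR adjusted p = 0.0459) and lower in KO than in P2+ (-1.63, SE 0.553, edgeR adjusted p = 0.0389). None of the 3 calls held in every alternative. That of P2+ against P2- was lost without replicate 1 of P2+ (1.58, edgeR adjusted p = 0.104), without replicate 1 of both groups and without replicate 2 or 3 of P2-. That of P2- against WT was lost with all 12 libraries in 1 fit (-1.47, edgeR adjusted p = 0.105), with the replicate block (-1.50, edgeR adjusted p = 0.0966) and without replicate 2 or 3 of either group. That of KO against P2+ was lost without replicate 1 of P2+ (-0.83, edgeR adjusted p = 0.201), with any 1 of the KO libraries left out, with the replicate block (-1.31, edgeR adjusted p = 0.0538) and in DESeq2 (adjusted p = 0.0913). It did not pass in KO against WT (-0.73, SE 0.292, edgeR adjusted p = 0.108). *Rag1* shares 80 exonic bases with B230118H07Rik on its own strand, so a part of its counts could belong to that gene.

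*Rag2* (ENSMUSG00000032864, chr2:101624718-101632529, plus strand), the partner of *Rag1* in the recombinase, was lower and passed in no comparison. Its counts were 45, 13 and 8 in P2+, 17, 0 and 3 in P2-, 20, 19 and 22 in WT and 16, 14 and 5 in KO libraries. P2+ was the higher in each numbered pair, and all 3 WT libraries were above all 3 P2- libraries. P2+ against P2- was not tested for want of libraries at 1 CPM, and P2- against WT gave -1.50 (SE 0.780, edgeR adjusted p = 0.226). The same B230118H07Rik shares 208 exonic bases with *Rag2* on the other strand.

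*Dntt* (ENSMUSG00000025014, chr19:41029275-41059525, plus strand) had 147, 19 and 12 counts in P2+ and 9, 1 and 0 counts in P2- libraries, against 32, 22 and 10 in WT and 25, 7 and 7 in KO libraries. Every P2+ library was above every P2- library, yet replicate 1 held most of the counts of P2+, and the highest P2+ library was 13.5-fold above the lowest. The comparison with P2- was not tested, as was that of P2- with WT. P2+ against WT gave 1.58 (SE 0.858, edgeR adjusted p = 0.248), and without replicate 1 of P2+ it turned to -0.51.

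*Ebf1* (ENSMUSG00000057098, chr11:44617317-45008091, plus strand) had 123, 46 and 12 counts in P2+, 20, 5 and 9 in P2-, 24, 84 and 40 in WT and 11, 28 and 20 in KO libraries. The lowest P2+ library, 0.914 CPM, lay within the range of P2-, 0.477 to 1.59 CPM. The pairs gave ratios of 6.48, 6.70 and 1.45. P2+ was above P2- by 2.39 on the log2 scale (SE 0.829), with an edgeR adjusted p of 0.0497 that became 0.050 with RLE size factors. This comparison passed in DESeq2 (adjusted p = 0.00344), in edgeR's exactTest (0.0156) and without the filter (0.0187). With the replicate block it was 2.16 (edgeR adjusted p = 0.00183). Without replicate 2 or 3 of P2- it did not pass (edgeR adjusted p = 0.099 and 0.149). P2- was below WT by -2.07 (SE 0.613, edgeR adjusted p = 0.0434), with no overlap, and this call was lost with all 12 libraries in 1 fit (-2.07, edgeR adjusted p = 0.0811). KO against P2+ gave -1.47 (SE 0.701), which did not pass (edgeR adjusted p = 0.125) but did in DESeq2 (adjusted p = 0.0427), without the filter (0.0347) and without replicate 3 of P2+ (-1.96, edgeR adjusted p = 0.0173), and it was -0.27 without replicate 1 of P2+ (edgeR adjusted p = 0.759).

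*Satb1* (ENSMUSG00000023927, chr17:51736187-51833290, minus strand) varied least of the 8 low genes within P2+, with the highest library 2.29-fold above the lowest. It was at 29.1, 21.9 and 21.8 CPM in WT, 16.9, 16.4 and 19.7 CPM in P2-, 36.4, 15.9 and 20.4 CPM in P2+ and 21.6, 20.1 and 19.7 CPM in KO libraries. Replicate 1 of P2+ was the highest library and replicate 2 of P2+ the lowest. *Satb1* passed in none of the 6 comparisons with all libraries, the smallest edgeR adjusted p being 0.0738 for P2- against WT (-0.45, SE 0.153, no overlap). P2+ against P2- gave 0.46 (SE 0.278, edgeR adjusted p = 0.232), and rested on replicate 1 of P2+. The pairs gave ratios of 2.16, 0.970 and 1.04, and the log2 fold change was 0.052 without replicate 1 of P2+ (edgeR adjusted p = 0.859), 0.017 without replicate 1 of both groups (0.966) and 0.70 without replicate 2 of P2+ (0.0483). Other genes share exonic bases with it, 156 bases of Gm36931 on its own strand and 128 bases of Gm6934 on the other strand.

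**Figure D2:**
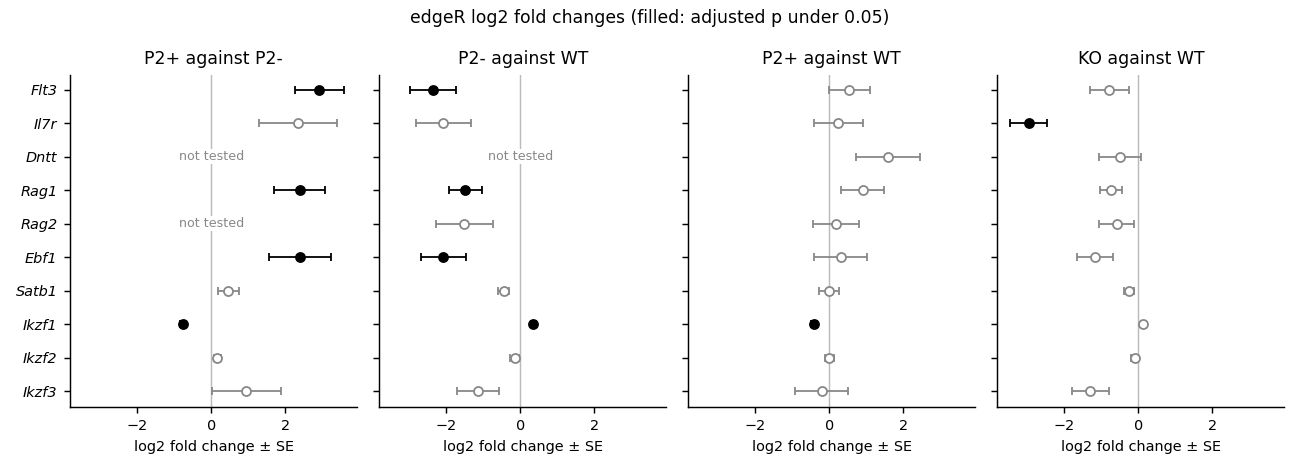
log2 fold change with its SE for each gene in 4 comparisons (edgeR, 3 against 3 libraries); filled points passed at an adjusted p under 0.05, open points did not, and genes under the filter are marked as not tested. Between P2+ and P2- the low genes lie to the right of 0 and *Ikzf1* at -0.75 to the left, and *Il7r* at -2.95 is the filled point of KO against WT.

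Read against all genes, the calls of the members were as follows. In P2+ against P2- 8 members were tested and 4 passed, *Flt3*, *Rag1* and *Ebf1* higher and *Ikzf1* lower, where 37.1% of 12836 genes passed. In P2+ against WT all 10 were tested and 1 passed, *Ikzf1*, where 16.5% of 12941 genes did. In P2- against WT 9 were tested and 4 passed, *Flt3*, *Rag1* and *Ebf1* lower and *Ikzf1* higher, where 16.5% of 12767 genes did. In KO against WT all 10 were tested and 1 passed, *Il7r*, where 14.9% of 12784 genes did. In KO against P2- 7 were tested and 0 passed in edgeR, 1 (*Ikzf1*) had an unadjusted p under 0.05 and 1 passed in DESeq2, where 1.61% of 12588 genes passed in edgeR. In KO against P2+ 9 were tested and 2 passed, *Ikzf1* higher and *Rag1* lower, where 37.1% of 12807 genes did. With so few members, 4 of 8 beside 37.1% or 1 of 10 beside 14.9% is no result about the members as a group. The comparisons share libraries, and P2- against WT is not independent of P2+ against P2-. As a description, and without *Dntt* and *Rag2*, the median over the 8 members tested was 1.64 on the log2 scale in P2+ against P2-, where that of all genes tested was -0.02. That over the 9 members tested in P2- against WT was -1.48, where that of all genes was 0.01. Each median includes *Flt3*, which entered through P2+ alone or WT alone and had to differ. The medians therefore carry no test of the members.

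The low genes varied within groups as well as between them. Replicate 1 of P2+ was the highest of the 12 libraries for 8 of the 10 members, all but *Ikzf1* and *Ikzf2*, whereas it was the highest for 12.4% of the 13288 genes above the filter over all libraries. Within P2+ the highest library was 11.7-fold above the lowest for *Il7r*, 11.3-fold for *Ebf1*, 8.30-fold for *Rag1* and 6.18-fold for *Rag2*, against 1.17-fold for *Ikzf1* and 1.11-fold for *Ikzf2*. Replicate 1 was the highest of both P2+ and P2- for 7 members, *Flt3*, *Il7r*, *Dntt*, *Rag1*, *Rag2*, *Ebf1* and *Ikzf3*, and for 14.8% of all genes. Without replicate 1 of P2+, 4 members were tested against P2- and 1 passed, *Ikzf1*, and *Rag1* lost its call. With replicate 1 of both groups left out *Rag1* was at 2.22 (edgeR adjusted p = 0.0610) and *Ikzf1* again was the 1 that passed. With replicate 2 of both groups left out, the pair with the high immediate early genes, 4 members were tested and all 4 passed, *Rag1*, *Satb1* (0.66) and *Ikzf2* (0.28) higher and *Ikzf1* lower. *Rag1* and *Ebf1* also lost their calls, at folds not far from those with all libraries, without replicate 2 of P2- (2.21 and 2.12, edgeR adjusted p = 0.0524 and 0.099) and without replicate 3 of P2- (2.08 and 2.17, edgeR adjusted p = 0.0944 and 0.149). *Flt3*, which entered through P2+ alone, was not tested without any 1 of the P2+ libraries, so that leaving out P2- libraries (2.56 to 3.70) says nothing about its stability. *Ikzf1* kept its call in all these fits (-0.78 to -0.68).

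The calls of *Flt3*, *Rag1* and *Ebf1* in P2- against WT rested on single libraries too, whereas *Ikzf1* kept its call with any 1 library left out (0.304 to 0.373). Without replicate 1 of P2- 7 members passed, *Il7r*, *Rag2* and *Ikzf3* in addition, and without replicate 3 of P2- 1 did, *Ikzf1*, with *Flt3* at -2.00 (edgeR adjusted p = 0.0855). *Rag1* and *Ebf1* lost their calls without replicate 2 or 3 of WT or of P2-, at -1.37 to -1.19 for *Rag1* and -2.24 to -1.32 for *Ebf1*. Left without any 1 of the WT libraries, *Flt3* was not tested.

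**Figure D3:**
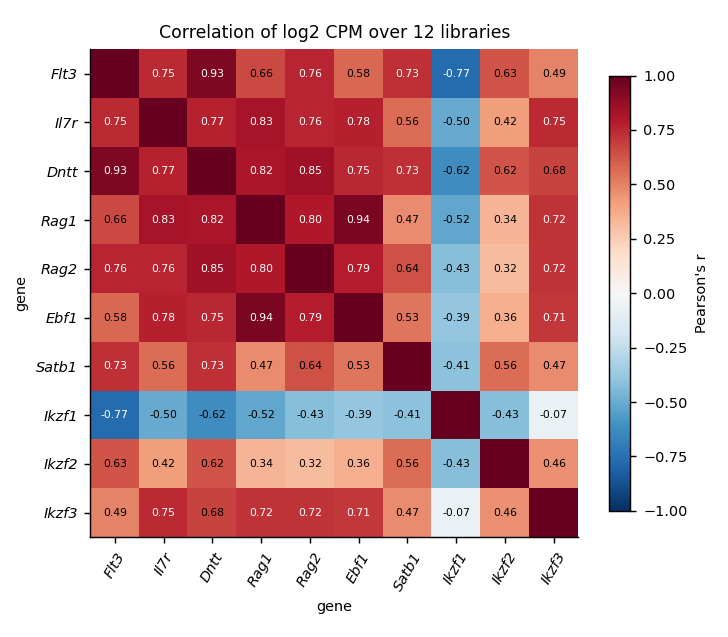
Pearson correlation of log2 CPM (prior count 2) between the 10 genes over the 12 libraries, on a colour scale from -1 to 1. The values between *Flt3*, *Il7r*, *Dntt*, *Rag1*, *Rag2* and *Ebf1* are all positive and those of *Ikzf1* with the other 9 genes all negative, from -0.77 with *Flt3* to -0.07 with *Ikzf3*.

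Over the 12 libraries, which share groups, depth and the libraries just named, the low genes followed each other. The highest correlations between members were 0.94 for *Rag1* with *Ebf1* and 0.93 for *Flt3* with *Dntt*. *Ikzf1* had negative values with *Flt3* (-0.77) and 7 others down to *Ebf1* (-0.39), and with *Ikzf3* its value was near 0 (-0.07). Among the 13288 genes, those most like *Flt3* were *Bex6* (r = 0.967) and *F13a1*, which encodes the A subunit of coagulation factor XIII (r = 0.955). *Il7r* was most like *A930006K02Rik* (0.969) and *St6gal1*, a sialyltransferase (0.963), and *Dntt* was most like *Flt3* (0.934) and *Tnfrsf18* (0.912). *Rag1* was most like *Ebf1* (0.941) and *Pou2af1*, a B cell coactivator (0.940), *Rag2* like *Slc8a1* (0.909) and *Rmnd5a* (0.899), and *Ebf1* like *Rag1* (0.941) and *Vps13b* (0.911). *Ikzf3* was most like *Tcf7*, a factor of early T cells (0.920), and *Dpp4* (0.878), and *Satb1* like *Il10ra* (0.909) and *Ift122* (0.855). *Ikzf1* had the closest partners of all, *Gclm*, a subunit of the enzyme that starts glutathione synthesis (0.988), and *Slc16a6* (0.986), while those of *Ikzf2* were *BC003331* (0.853) and *C87436* (0.849). These correlations describe 12 libraries of 4 groups and are given with no test.

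Other genes of the same pathways were read from lists. Among all genes tested, P2+ was above P2- for 20.1% and below it for 17.0%, and KO was above WT for 6.18% and below it for 8.76%, past the test. Low genes of these lists, like *Flt3*, could enter a test through 1 group alone, so the counts describe the lists and carry no test of them. Of 23 lymphoid transcription factors, 18 were tested between P2+ and P2- PreMegEs, 7 were higher and 3 lower, with a median log2 fold change of 0.54. The largest rises were those of *Ets1* (2.26, SE 0.223, 41.7 against 8.72 CPM), *Mef2c* (1.82, SE 0.085, 696 against 198 CPM) and *Spi1*, which encodes PU.1 (1.07, SE 0.110, 43.0 against 20.5 CPM). The 3 that fell, named after their values were seen, were *Tcf3*, which encodes E2A (-0.69, SE 0.073), *Bcl11a* (-0.47, SE 0.080) and *Zbtb7a* (-0.30, SE 0.076). Between KO and WT, 16 were tested, 2 were higher and 6 lower, led by *Ets1* (-1.27, SE 0.190), *Mef2c* (-1.19, SE 0.081) and *Notch1* (-1.14, SE 0.171), all lower.

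Of 18 genes of lymphoid progenitor surface and signalling, 15 were tested between P2+ and P2-, 9 were higher and 2 lower, beside 20.1% and 17.0% of all genes, with a median of 0.92. Among those that rose were *Cd53*, which encodes a tetraspanin of leukocytes (2.88, SE 0.654, 9.32 against 1.28 CPM), and *Cd52* (2.60, SE 0.352, 8.36 against 1.38 CPM). The pair that fell, named after their values were seen, were *Stat5a* (-0.46, SE 0.075) and *Stat5b* (-0.23, SE 0.079), the signal transducers below the IL-7 receptor. Between KO and WT 1 was higher, *Cd48* (0.56, SE 0.084), and 3 were lower, among them *Cd27* (-0.96, SE 0.121) and *Cxcr4* (-0.82, SE 0.128).

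Of 13 NuRD subunits, the chromatin remodelling complex that Ikaros binds, all were tested and none was higher in P2+ than in P2-, while 3 were lower, *Mbd2* (-0.73, SE 0.094), *Gatad2a* (-0.29, SE 0.070) and *Mta2* (-0.24, SE 0.073), and the median was -0.15. Beside the 17.0% of all genes that were lower, 3 of 13 is no result about the complex. In KO against WT none of the 13 passed in edgeR, and 3 had an unadjusted p under 0.05. Of 13 genes that join the breaks made by RAG, 1 was higher and 4 were lower in P2+ than in P2-, led by *Polm*, a DNA polymerase (-0.96, SE 0.147), *Dclre1c*, which encodes Artemis (-0.76, SE 0.181), and *Xrcc5*, which encodes Ku80 (-0.64, SE 0.158), with a median of -0.05. These 5 of 13 stand beside 37.1% of all genes and are no result about the joining genes. In KO against WT 1 passed, *Polm* (0.55, SE 0.120). Of 14 targets of EBF1 in pre-B cells, 7 were tested between P2+ and P2-, 5 were higher and 1 was lower, with a median of 1.35. *Pou2af1* (2.44, SE 0.696) and *Vpreb3* (2.32, SE 0.746) were among those that rose, and *Cd24a*, which many other cells also make, fell (-1.56, SE 0.166, 237.5 against 699.8 CPM). Of 6 further genes of the same factor families none passed in any of the 6 comparisons in edgeR, in which 2 were tested, or 3 in P2+ against WT, and 1 had an unadjusted p under 0.05, in KO against P2+. *Ikzf5*, which encodes Pegasus, was at 62.8 to 70.7 CPM in the group means and *Ikzf4*, which encodes Eos, at 0.436 to 1.63 CPM, while *Ebf2* had 0 counts in all 12 libraries.

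**Figure D4:**
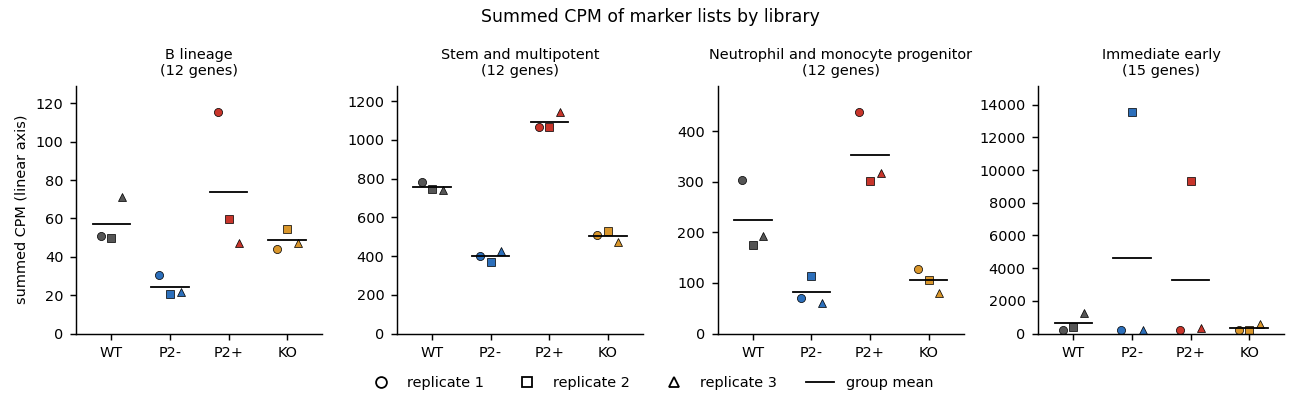
Summed CPM of 4 marker lists (linear axis, from 0) in each library, by group; symbols mark the replicate number and lines the group mean. Replicate 1 of P2+ has the highest B lineage sum, 115 CPM, and replicate 2 of P2- and of P2+ have the high immediate early sums.

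Between P2+ and P2- PreMegEs, markers of several other cell types moved in the same direction as the low lymphoid genes. The sum of 12 B lineage markers was 115, 59.6 and 47.2 CPM in P2+, 30.6, 20.8 and 21.9 CPM in P2-, 50.8, 49.9 and 71.3 CPM in WT and 44.3, 54.7 and 47.1 CPM in KO libraries. It was highest in replicate 1 of P2+ and, within P2-, in replicate 1, as were the 7 members named above. *Ighm* alone, the heavy chain of IgM, had group means of 10.1 to 32.6 CPM, while *Pax5* and *Ms4a1*, defining markers of B cells, had group means of at most 0.775 and 0.658 CPM. Between P2+ and P2- 7 of the 12 were tested, 5 were higher and 0 lower, and between P2- and WT 8 were tested and 4 were lower, beside 9.6% of all genes. Between KO and WT 9 were tested and 3 were lower, beside 8.76% of all genes, among them *Vpreb3* (-1.75, SE 0.494) and *Cd79b* (-0.58, SE 0.165). Of 12 markers of T and NK cells, 7 to 9 were at or under 3 counts in each library, and *Cd3g* and *Cd8a* were at 0 in all 12 libraries. The summed CPM of the list was 180.1 to 266.5 CPM in P2+, 91.0 to 127.5 CPM in P2-, 224 to 239.5 CPM in WT and 100.6 to 105 CPM in KO libraries, most of it from *Nkg7*. Between P2+ and P2- 3 of its genes were tested and all 3 were higher, *Thy1* (3.65, SE 0.335, 8.10 against 0.625 CPM), *Lck* (1.59, SE 0.416, 2.82 against 0.945 CPM) and *Nkg7* (0.97, SE 0.165, 209.5 against 107 CPM). *Cd247*, not tested there, lay the other way (0.387 against 1.08 CPM), and it was higher in KO than in P2+ (1.90, SE 0.506). The 6 mast cell and basophil markers summed to 84.3 to 137 CPM in P2+, 24.4 to 28.2 CPM in P2-, 28.0 to 48.0 CPM in WT and 47.4 to 64.1 CPM in KO libraries. Of these, 3 were tested between P2+ and P2- and all 3 were higher, among them *Ms4a2*, a chain of the IgE receptor (2.96, SE 0.238, 70.7 against 9.15 CPM), and *Cpa3*, a mast cell protease (1.24, SE 0.156, 39.1 against 16.6 CPM). Between KO and WT this list went the other way from *Il7r*. There 2 were tested and 2 were higher, *Cpa3* (0.98, SE 0.134) and *Ms4a2* (0.71, SE 0.232), beside 6.18% of all genes. The 12 stem and multipotent cell markers summed to 1067 to 1143 CPM in P2+, 370.2 to 426 CPM in P2-, 742 to 780.3 CPM in WT and 474 to 529 CPM in KO libraries. Those of neutrophil and monocyte progenitors summed to 302 to 437 CPM in P2+, 60.3 to 114 CPM in P2-, 175 to 304 CPM in WT and 80.3 to 128 CPM in KO libraries. The 8 plasmacytoid dendritic cell markers moved in both directions. They summed to 195 to 249.5 CPM in P2+, 161 to 166 CPM in P2-, 206 to 214 CPM in WT and 147.5 to 165 CPM in KO libraries, most of it from *Tcf4* (171 CPM in P2+ and 114 CPM in P2-), while *Bst2* was lower in P2+ than in P2- (-0.44, SE 0.15), *Siglech* had group means of at most 0.738 CPM and *Klk1* was at 0 in all 12 libraries. The sums of the 12 erythroid markers had the same order of group means as *Ikzf1*, with 5825 to 6635 CPM in P2-, 5603 to 6303 CPM in KO, 3325 to 3842 CPM in WT and 1304 to 1541 CPM in P2+ libraries, and those of the 12 megakaryocyte markers the opposite order, with 283 to 357 CPM in P2-, 632 to 651 CPM in KO, 780.3 to 881 CPM in WT and 1210 to 1753 CPM in P2+ libraries. The part of these other transcripts in the levels of the members was not tested.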

How the data were processed

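PreMegE poly(A) RNA was sequenced by the authors from strand-specific libraries (50 ng of RNA, 16 cycles of amplification). Per the labels and the study's methods, Bowtie2 placed the reads on GRCm38 and featureCounts assigned them to the genes of Ensembl. The authors deposited the raw counts that resulted, with no scaling. The strand setting and the treatment of reads with several alignments are not given in the sources used here.

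The members and the lists of genes were chosen with earlier results of these data known. Groups and replicate numbers were taken from the labels. For each of 6 comparisons of 3 against 3 libraries, a gene was tested where 3 or more of the 6 libraries reached 1 CPM, with the quasi-likelihood F-test of edgeR 4.0.16 (R 4.3.3), TMM scaling and the group alone, and p-values were adjusted by Benjamini and Hochberg over all genes tested. A gene passed at an adjusted p under 0.05. SE is the size of the log2 fold change over the square root of F. Levels are CPM with TMM over all 12 libraries, and RPKM uses exonic lengths of GENCODE vM21. Named genes were all members, at most the 3 largest changes of each list among those that passed, the 2 genes most correlated with each member, and the gate antigens and *Runx1* as checks. Other listed genes that are named were chosen after their values were seen. A few listed genes are left unnamed and stay in all counts and medians. Each library was a pool of 3 mice, and limits from a count of 0 cover counting error only. Same-numbered P2+ and P2- libraries deviated together from their group means (correlations 0.386, 0.568 and 0.403 over 13288 genes), so their numbers were taken as pairs. DESeq2 1.42.0, exactTest, RLE size factors, no filter, a replicate block, all 12 libraries in 1 fit, a 2-fold minimum and leaving out libraries were alternatives.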

Additional observations from a re-analysis of the deposited data

How the results depend on the processing

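The counts of members that passed depended on single libraries. With each library left out in turn, 1 to 3 members passed in P2+ against P2- (4 with all libraries), where 4 to 8 were tested and 28.5% to 34.6% of all genes passed, 1 to 2 in P2+ against WT (1), 1 to 7 in P2- against WT (4), 0 to 2 in KO against WT (1), 0 in KO against P2- (0) and 1 to 4 in KO against P2+ (2). With replicate 1 of P2+ and of P2- left out, chosen after seeing the data, 1 member passed. With a 2-fold minimum 0 passed in P2+ against WT and 1 in KO against P2+. With all 12 libraries in 1 fit 6 passed in P2+ against P2-, *Il7r* and *Dntt* in addition (42.8% of all genes), 3 in KO against P2+, 2 in P2- against WT and 0 in KO against WT. Without the filter on low counts 6 passed in P2- against WT, *Il7r* and *Dntt* in addition, 3 in KO against WT and 6 in KO against P2+, and *Dntt* entered in P2+ against P2- at 4.09 (edgeR adjusted p = 0.00735). The exactTest of edgeR gave 2 in KO against WT, and DESeq2 gave 1 in KO against P2- and, in KO against P2+, called *Ebf1* in place of *Rag1*.

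With the replicate block the counts were 5 in P2+ against P2-, where the numbers pair the libraries and 50.7% of all genes passed (37.1% without the block), 1 in P2+ against WT, 2 in P2- against WT, 1 in KO against WT, 0 in KO against P2- and 3 in KO against P2+, where *Flt3* and *Dntt* came in and *Rag1* lost its call. In P2- against WT *Rag1* (-1.50, adjusted p = 0.0966) and *Ebf1* (-1.91, adjusted p = 0.105) lost their calls under the block at nearly the same fold. Outside P2+ and P2- the libraries share only a number, so the block there follows no known pairing. For P2- against WT the same-numbered libraries had correlations of 0.068, -0.04 and -0.089 over 13288 genes.

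Directions of *Ikzf1* were the same under all alternatives run. Signs that turned were those of log2 fold changes that passed no test. In P2+ against WT, the block gave -0.10 for *Il7r*, -0.12 for *Rag2* and -0.037 for *Ebf1*, and exactTest gave 0.002 for *Satb1*. With single libraries left out in that comparison the ranges were -0.41 to 0.23 for *Satb1*, -0.94 to 0.74 for *Il7r*, -0.996 to 0.58 for *Rag2*, -0.89 to 1.06 for *Ebf1*, -0.11 to 0.12 for *Ikzf2*, -0.14 to 1.17 for *Flt3*, -0.51 to 2.07 for *Dntt* and -1.25 to 0.34 for *Ikzf3*. In KO against WT *Ikzf2* ranged from -0.21 to 0.019, in KO against P2- *Ikzf3* from -0.59 to 0.27 and in KO against P2+ *Satb1* from -0.49 to 0.16. The causes were not tested. Leaving out replicate 2 of P2+ or of P2- in the other comparisons is the same as leaving out that 1 library. For the 8 low genes, depth limits what can be seen: P2- libraries held as few as 0 counts of *Dntt* and *Rag2*, and 3 against 3 libraries cannot go below an exact permutation p of 0.10.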
